A study of Rattus norvegicus with 12 samples.

Results

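The genes of TGF-beta signalling that make, hold back, activate or receive the ligand were examined in 2 rat models of renal fibrosis. They were chosen by name as Tgfb1, Tgfb2 and Tgfb3 (ligands), Tgfbr1, Tgfbr2 and Tgfbr3 (receptors), Ltbp1 and Ltbp2 (latent TGF-beta binding proteins) and Tgfbi (a gene induced by TGF-beta). These 9 genes were each listed once among the 22132 entries of the control and adenine table and once among the 32623 entries of the sham and UUO table. RNA was sequenced from whole kidney tissue of 12 male Sprague-Dawley rats, wild type by their labels and 8 weeks old at purchase, with 3 different rats in each group. Over 3 weeks the adenine group was gavaged daily with adenine (220 mg/kg per day), and the control group was given saline. The UUO group had unilateral ureteral obstruction, here ligation of the left ureter, and was compared with the sham operated group 2 weeks after surgery.

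TGF-beta is secreted as an inactive complex in which the mature ligand stays bound to its own propeptide. Latent TGF-beta binding proteins tether this complex to the extracellular matrix, and integrins, thrombospondin and proteases can release the ligand from it. Free ligand binds the type II receptor, which recruits and phosphorylates the type I receptor, and the signal passes to Smad transcription factors that induce matrix genes. In the kidney this pathway is best known for driving myofibroblast activation and matrix deposition during fibrosis.

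Expression was deposited as FPKM, fragments scaled by transcript length and by mapped fragments, so levels of different genes could be compared within a kidney. Each table was fitted by itself with limma on log2(FPKM + 0.1) over all genes that reached an FPKM of 0.5 in 3 or more of the 6 samples. To be a differentially expressed gene (DEG), a gene needed a p under 0.05 after Benjamini-Hochberg adjustment over the whole table, and a change of 4-fold or more (2 on the log2 scale) in either direction. With 3 kidneys per group, 0.1 is the smallest p that a two-sided exact permutation test of a single value can reach. FPKM summed to between 564972 and 582725 in control, 468389 and 487770 in adenine, 619664 and 630244 in sham and 528811 and 539011 in UUO kidneys, and the number of reads behind a value is unknown. Over all tested genes the log2 fold change had a median of 0.30 (adenine) and 0.62 (UUO), and of 0.0055 and 0.020 after median-of-ratios scaling, so the changes below are to be read against these medians. DEGs were upregulated in 68% (adenine) and 75.8% (UUO) of cases as deposited, in 57% and 55.4% after median-of-ratios scaling and in 76.6% and 81.6% with FPKM rescaled to the same sum.

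Most of these genes were higher in both fibrosis models. In the adenine model 5 of the 9 were upregulated DEGs (Tgfb1, Tgfb2, Tgfbr1, Tgfbr2 and Ltbp2), where 10.7% of all tested genes were. By adjusted p alone 7 were higher, against 39.6% of all tested genes, and in the same 7 every adenine kidney lay above every control kidney, against 45% of all tested genes. In the UUO model 4 of the 9 were upregulated DEGs (Tgfb1, Tgfb2, Tgfb3 and Ltbp2), against 13.2% of all tested genes. By adjusted p alone 8 were higher, against 56.1%, and in 8 the UUO kidneys all lay above the sham kidneys, against 60%. The 9 genes had a median log2 fold change of 2.25 with adenine and 1.83 with UUO, and of 1.96 and 1.23 after median-of-ratios scaling. No member fell past the test in either model as deposited. In bulk kidney tissue a change in the number of cells that express a gene and a change in RNA per cell cannot be told apart.

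**Figure D1:**
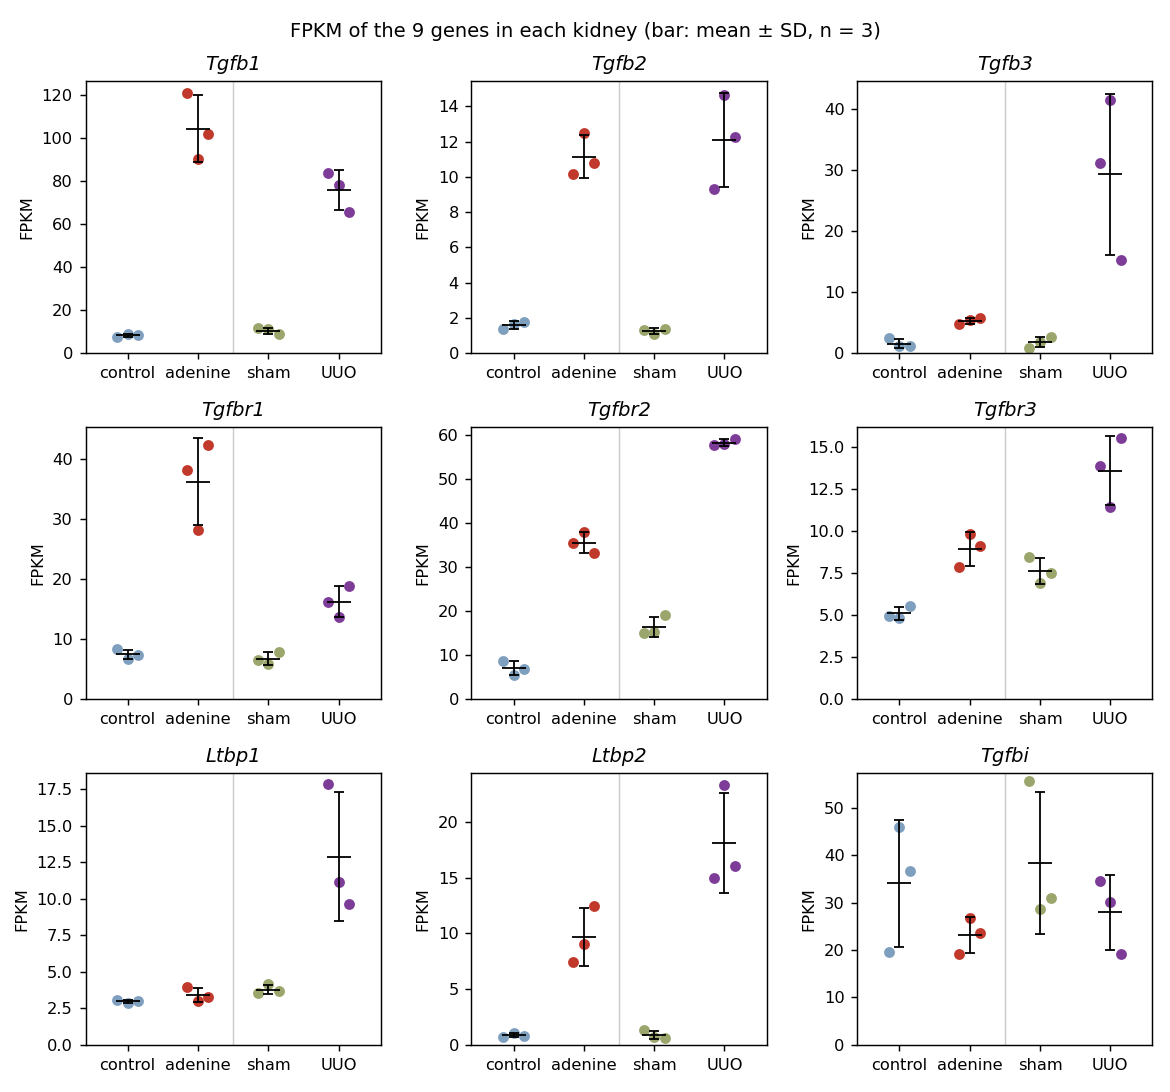
FPKM of each of the 9 genes (vertical axis, linear, from 0, own scale for each gene) in every kidney of the 4 groups. Points are single kidneys and bars are mean ± SD (n = 3). The adenine and UUO points lie above their reference points in most panels, Ltbp1 is higher in UUO kidneys but overlaps in the adenine model, and Tgfbi overlaps in both models.

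Sequence just upstream of the genes is shown for 3 members that rose in both models (Tgfb1, Tgfb2 and Ltbp2) and for Tgfbi, which did not pass the test in either. Each run is the 250 bases before the annotated start in RefSeq assembly GRCr8, written 5′ to 3′ on the strand of the gene and matched by symbol, as all 9 members could be. Capitals mark the letters CAGAC (the core bound by Smad proteins) or GGGCGG (a GC box) on either strand.
Tgfb1 (chr1:90324062-90324311, plus strand): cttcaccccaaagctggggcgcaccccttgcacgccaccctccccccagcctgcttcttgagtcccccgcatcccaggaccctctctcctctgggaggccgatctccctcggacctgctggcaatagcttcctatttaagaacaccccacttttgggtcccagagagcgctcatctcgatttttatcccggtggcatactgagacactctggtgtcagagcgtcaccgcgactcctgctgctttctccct
Tgfb2 (chr13:100792686-100792935, minus strand): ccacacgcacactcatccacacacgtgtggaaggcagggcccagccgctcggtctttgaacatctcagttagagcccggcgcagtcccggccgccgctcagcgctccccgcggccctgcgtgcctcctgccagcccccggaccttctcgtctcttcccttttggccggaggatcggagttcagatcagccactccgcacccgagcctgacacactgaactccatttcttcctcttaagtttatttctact
Ltbp2 (chr6:110257299-110257548, minus strand): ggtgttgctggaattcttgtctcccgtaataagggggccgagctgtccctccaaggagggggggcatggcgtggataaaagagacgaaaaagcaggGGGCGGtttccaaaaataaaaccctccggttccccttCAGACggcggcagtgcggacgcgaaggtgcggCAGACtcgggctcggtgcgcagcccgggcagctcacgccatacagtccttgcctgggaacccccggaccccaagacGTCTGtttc
Tgfbi (chr17:7990114-7990363, minus strand): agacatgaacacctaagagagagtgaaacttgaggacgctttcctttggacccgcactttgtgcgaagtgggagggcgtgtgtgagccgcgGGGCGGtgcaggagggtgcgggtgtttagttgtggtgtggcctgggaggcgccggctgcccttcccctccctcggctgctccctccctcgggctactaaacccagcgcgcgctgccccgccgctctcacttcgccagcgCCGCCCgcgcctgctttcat
CAGAC was found in 2 of the 9 members (Ltbp1 and Ltbp2, with 3 matches in Ltbp2), and in 42.9% of the 33469 windows of this length. GGGCGG was found in 5 members (Tgfbr1, Tgfbr2, Tgfbr3, Ltbp2 and Tgfbi), and in 30.5% of all windows. The letters TGANTCA (an AP-1 site) were in 6.34% of all windows and in 0 of the 9 members. The letters TATAAA (the box at many core promoters) were in 12.9% of all windows and in 0 of the 9 members. The GC content of the 4 windows printed was 60%, 61.6%, 61.6% and 65.6% in the order shown, against a median of 51.2% over all windows. These matches describe letters only, and the start sites used by the kidney were not measured.

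Tgfb1, the most abundant ligand gene in every kidney, was upregulated in both models. Its FPKM rose from 8.28 ± 0.585 (SD, n = 3) in control to 104 ± 15.5 in adenine kidneys, a 12.6-fold ratio of means and a log2 fold change of 3.63 (SE 0.13, adjusted p = 2.28e-05 by limma). In the UUO model FPKM of Tgfb1 was 11.6, 11.1 and 8.86 in sham kidneys and 83.8, 78.0 and 65.7 in UUO kidneys. The lowest UUO kidney was thus far above the highest sham kidney, with a 7.22-fold ratio of means and a log2 fold change of 2.84 (SE 0.14, adjusted p = 1.64e-05 by limma). Tgfb1 ranked at percentile 97.3 of all tested log2 fold changes with adenine and at percentile 93.6 with UUO.

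Tgfb2, a ligand with low affinity for the type II receptor in the absence of a coreceptor, was about as low as Tgfb3 in the reference kidneys and rose in both models. FPKM of Tgfb2 was 1.37, 1.64 and 1.78 in control kidneys and 10.1, 12.5 and 10.8 in adenine kidneys. It was 1.32, 1.09 and 1.39 in sham kidneys and 9.33, 14.7 and 12.2 in UUO kidneys. The groups did not overlap in either model. The log2 fold change of Tgfb2 was 2.73 (SE 0.16, adjusted p = 5.19e-05 by limma) with adenine and 3.14 (SE 0.21, adjusted p = 3.79e-05 by limma) with UUO.

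Tgfb3, the third ligand gene, rose in both models and differed most between them. FPKM of Tgfb3 was 2.47, 1.20 and 1.13 in control kidneys and 4.72, 5.45 and 5.74 in adenine kidneys. In the UUO model it was 0.930, 1.88 and 2.64 in sham kidneys and 31.0, 41.4 and 15.3 in UUO kidneys, so the UUO kidneys were spread widely and all lay far above the sham kidneys. The log2 fold change was 1.75 (SE 0.31, adjusted p = 0.00289 by limma) with adenine, under the DEG threshold, and 3.93 (SE 0.47, adjusted p = 0.000371 by limma) with UUO. Control replicate 1 held the highest control value of Tgfb3, and without it the log2 fold change with adenine was 2.09 (adjusted p = 0.000638 by limma), past the DEG threshold. It was 2.01 with FPKM rescaled to the same sum.

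The ligand genes were also summed within each kidney, bearing in mind that the tables were normalized separately. The summed FPKM was 11.5, 11.7 and 11.2 in control and 136, 108 and 118 in adenine kidneys. It was 13.8, 14.0 and 12.9 in sham and 124, 134 and 93.2 in UUO kidneys. Tgfb1 made up 66.7%, 75.7% and 74.0% of the sum in control kidneys and 89.0%, 83.4% and 86.1% in adenine kidneys, higher in each adenine kidney (exact permutation test, p = 0.1, the smallest possible). In the UUO model the share of Tgfb1 was 83.7%, 78.9% and 68.7% in sham kidneys and 67.5%, 58.2% and 70.5% in UUO kidneys, and these ranges overlapped (exact permutation test, p = 0.2). Tgfb3 made up 21.5%, 10.3% and 10.1% of the sum in control and 3.48%, 5.05% and 4.84% in adenine kidneys, lower in each adenine kidney. Its share was 6.72%, 13.4% and 20.5% in sham and 25.0%, 30.9% and 16.4% in UUO kidneys, with overlap (exact permutation test, p = 0.2). These shares do not depend on the scaling between kidneys.

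**Figure D2:**
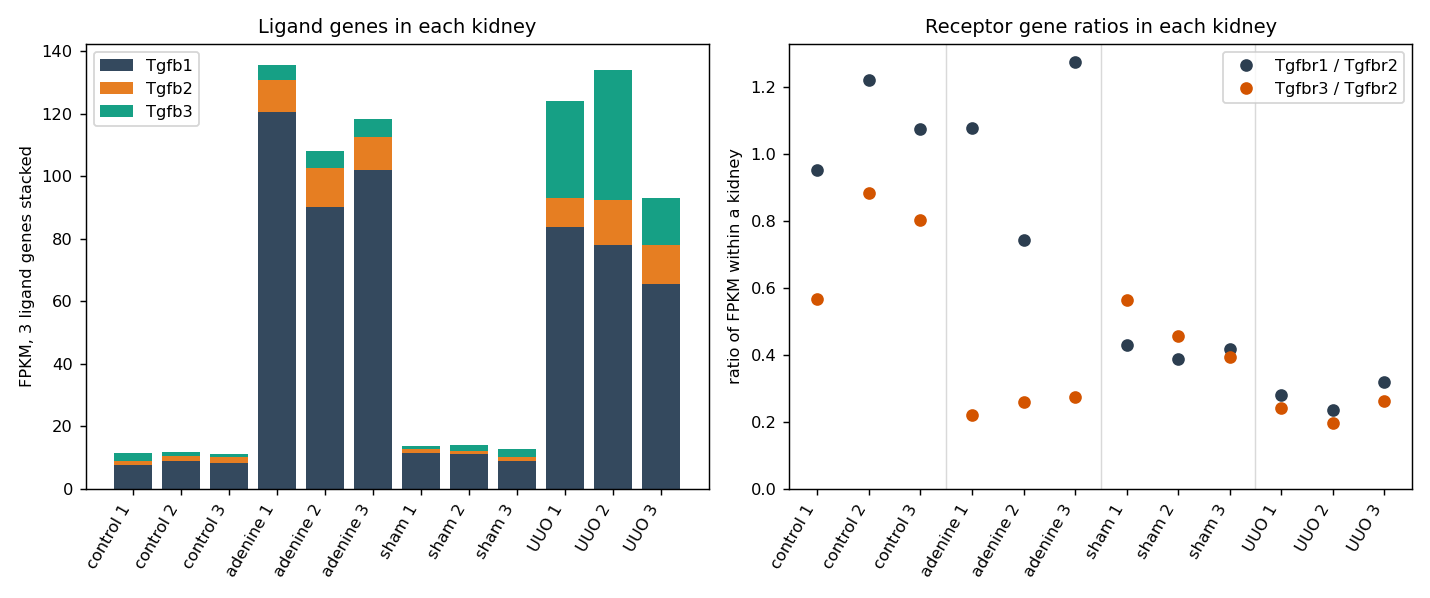
Left, stacked bars of FPKM of Tgfb1, Tgfb2 and Tgfb3 in each of the 12 kidneys (vertical axis from 0). Right, the ratio of Tgfbr1 to Tgfbr2 and of Tgfbr3 to Tgfbr2 FPKM within each kidney (points, vertical axis from 0). The ligand sum is between 93.2 and 136 in adenine and UUO kidneys and at most 14.0 in the others, the Tgfb3 segment is larger in UUO than in sham kidneys, and the Tgfbr3 ratio is lower in every adenine and UUO kidney than in its reference group.

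Tgfbr1, the type I receptor kinase that phosphorylates Smad2 and Smad3, rose more with adenine than with UUO. FPKM of Tgfbr1 was 8.30, 6.69 and 7.42 in control kidneys and 38.2, 28.2 and 42.4 in adenine kidneys. In the other table it was 6.49, 5.86 and 7.94 in sham kidneys and 16.3, 13.7 and 18.9 in UUO kidneys. Neither pair of groups overlapped. The log2 fold change of Tgfbr1 was 2.25 (SE 0.18, adjusted p = 0.000113 by limma) with adenine and 1.26 (SE 0.17, adjusted p = 0.000595 by limma) with UUO. After median-of-ratios scaling the values were 1.96, which is just under the DEG threshold, and 0.66.

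Tgfbr2, the type II receptor that binds the ligand first, rose in both models. FPKM of Tgfbr2 was 8.70, 5.48 and 6.90 in control and 35.4, 38.0 and 33.3 in adenine kidneys. It was 15.0, 15.1 and 19.0 in sham and 57.7, 58.0 and 59.2 in UUO kidneys, and the UUO kidneys lay close together. The log2 fold change of Tgfbr2 was 2.34 (SE 0.18, adjusted p = 0.000101 by limma) with adenine. With UUO it was 1.83 (SE 0.11, adjusted p = 2.89e-05 by limma), below the DEG threshold, and 2.05 with FPKM rescaled to the same sum.

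Tgfbr3, or betaglycan, a coreceptor that presents the ligand to the type II receptor, changed least among the receptors. FPKM of Tgfbr3 was 4.94, 4.85 and 5.55 in control and 7.85, 9.86 and 9.12 in adenine kidneys. It was 8.49, 6.92 and 7.50 in sham and 13.9, 11.4 and 15.5 in UUO kidneys. The groups did not overlap, and the log2 fold change was 0.79 (SE 0.14, adjusted p = 0.00294 by limma) with adenine and 0.82 (SE 0.15, adjusted p = 0.00243 by limma) with UUO. After median-of-ratios scaling it was 0.50 (adjusted p = 0.0175 by limma) and 0.22 (adjusted p = 0.207 by limma), so the call for UUO depended on the scaling.

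Ratios of the receptor genes were compared within each kidney. The ratio of Tgfbr3 to Tgfbr2 was 0.752 ± 0.165 (SD, n = 3) in control and 0.252 ± 0.0269 in adenine kidneys, without overlap (exact permutation test, p = 0.1). It was 0.472 ± 0.0861 in sham and 0.233 ± 0.0331 in UUO kidneys, also without overlap (exact permutation test, p = 0.1). The ratio of Tgfbr1 to Tgfbr2 was 0.954, 1.22 and 1.08 in control and 1.08, 0.743 and 1.27 in adenine kidneys, which overlapped (exact permutation test, p = 0.9). In sham kidneys this ratio was 0.431, 0.387 and 0.417, and in UUO kidneys it was 0.282, 0.237 and 0.319, lower in each (exact permutation test, p = 0.1). The summed ligand genes per Tgfbr2 came to 1.69 ± 0.409 (SD, n = 3) in control and 3.41 ± 0.511 in adenine kidneys, and to 0.841 ± 0.142 in sham and 2.01 ± 0.388 in UUO kidneys. Every adenine and UUO kidney had a higher value than its reference kidneys, with the same smallest p.

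Of the latent TGF-beta binding proteins, Ltbp2 rose in both models, and Ltbp1 passed the test with UUO and not with adenine. Ltbp1, which tethers latent TGF-beta to the matrix, had an FPKM of 3.11, 2.90 and 3.01 in control and 3.93, 3.01 and 3.28 in adenine kidneys. These ranges overlapped, and the log2 fold change was 0.17 (95% CI -0.22 to 0.56, adjusted p = 0.403 by limma) or -0.12 after median-of-ratios scaling. In the UUO model FPKM of Ltbp1 was 3.55, 4.14 and 3.68 in sham kidneys and 17.9, 11.2 and 9.63 in UUO kidneys. Every UUO kidney was above every sham kidney, with a log2 fold change of 1.69 (SE 0.24, adjusted p = 0.000728 by limma) or 1.10 after median-of-ratios scaling.

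Ltbp2, a fibrillin-binding matrix protein of the same family that does not itself bind latent TGF-beta, had the lowest group mean of the 9 genes in control and sham kidneys, although in sham replicate 1 Tgfb3 was lower. FPKM of Ltbp2 was 0.702, 1.10 and 0.833 in control and 7.45, 9.08 and 12.5 in adenine kidneys. It was 1.29, 0.742 and 0.608 in sham and 15.0, 23.3 and 16.1 in UUO kidneys. The groups were far apart in both models, with a log2 fold change of 3.31 (SE 0.25, adjusted p = 0.000108 by limma) with adenine and 4.25 (SE 0.30, adjusted p = 4.74e-05 by limma) with UUO. The ratio of Ltbp2 to Ltbp1 within a kidney was 0.294 ± 0.0780 (SD, n = 3) in control and 2.91 ± 0.965 in adenine kidneys, and 0.236 ± 0.111 in sham and 1.53 ± 0.634 in UUO kidneys, without overlap.

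Tgfbi, named for its induction by TGF-beta and encoding a secreted matrix protein, did not pass the test in either model. FPKM of Tgfbi was 19.6, 45.9 and 36.7 in control and 19.1, 26.7 and 23.6 in adenine kidneys. It was 55.6, 28.6 and 31.1 in sham and 34.5, 30.2 and 19.2 in UUO kidneys. The groups overlapped in both models, and the reference kidneys were widely spread. The log2 fold change of Tgfbi was -0.48 (95% CI -1.24 to 0.27, adjusted p = 0.221 by limma) with adenine and -0.43 (95% CI -1.18 to 0.31, adjusted p = 0.25 by limma) with UUO, so a rise of the size seen for Tgfb1 lay outside both intervals. Control replicate 1 had the lowest control value, and without it Tgfbi was lower in adenine kidneys by a log2 fold change of -0.84 (adjusted p = 0.0125 by limma). After median-of-ratios scaling Tgfbi was lower in UUO kidneys, at -1.03 (adjusted p = 0.0319 by limma). The ratio of Tgfb1 to Tgfbi within a kidney was 0.270 ± 0.107 (SD, n = 3) in control and 4.68 ± 1.51 in adenine kidneys, and 0.294 ± 0.0896 in sham and 2.81 ± 0.537 in UUO kidneys, without overlap.

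The order of FPKM levels among the 9 genes was compared within each group. Tgfbi was the highest in control and sham kidneys and Tgfb1 the highest in adenine and UUO kidneys, in each case without overlap with the gene ranked next. In control kidneys Tgfb1, Tgfbr1, Tgfbr2 and Tgfbr3 followed Tgfbi with overlap between neighbours, then came Ltbp1, then Tgfb3 and Tgfb2, which overlapped, and then Ltbp2. In sham kidneys Tgfbr2 stood second, followed by Tgfb1, then Tgfbr3 and Tgfbr1 with overlap, Ltbp1, and last Tgfb3, Tgfb2 and Ltbp2 with overlap between neighbours. In adenine kidneys Tgfbr1 and Tgfbr2 followed Tgfb1 and overlapped, Tgfbi came next, Tgfb2, Ltbp2 and Tgfbr3 overlapped as neighbours, and Tgfb3 and then Ltbp1 were lowest. In UUO kidneys Tgfbr2 stood second, and the genes from Tgfb3 through Tgfbi, Ltbp2, Tgfbr1, Tgfbr3 and Ltbp1 to Tgfb2 each overlapped the gene ranked above.

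Whether a gene responded differently in the models was tested as the difference of the log2 fold changes, adenine minus UUO, adjusted over the 13486 symbols tested and listed once in both tables. By adjusted p alone 4 of the 9 genes differed, against 27% of all symbols, and 1 of them (Tgfb3) also differed by at least 2, against 2.88%. Tgfb1 rose more with adenine, by 0.79 (95% CI 0.37 to 1.21, adjusted p = 0.0101 from the limma fits), and so did Tgfbr1, by 0.99 (95% CI 0.47 to 1.52, adjusted p = 0.00975 from the limma fits). Tgfb3 rose more with UUO, with a difference of -2.18 (95% CI -3.39 to -0.98, adjusted p = 0.0127 from the limma fits). Ltbp1 rose with UUO and did not pass the test with adenine, with a difference of -1.52 (95% CI -2.14 to -0.91, adjusted p = 0.00250 from the limma fits). After median-of-ratios scaling these 4 differences were 1.10, 1.30, -1.88 and -1.22, in the same order and all with an adjusted p under 0.05.

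For the other 5 genes the difference did not pass. It was -0.41 for Tgfb2 (95% CI -0.98 to 0.16), -0.029 for Tgfbr3 (95% CI -0.47 to 0.41) and -0.053 for Tgfbi (95% CI -1.01 to 0.90). For Tgfbr2 it was 0.51 (95% CI 0.06 to 0.96, adjusted p = 0.0815 from the limma fits), and it passed after median-of-ratios scaling (0.82, adjusted p = 0.0134) and without control replicate 1 (0.68, adjusted p = 0.0175). For Ltbp2 it was -0.94 (95% CI -1.79 to -0.10, adjusted p = 0.0885 from the limma fits), and it passed without sham replicate 1 (-1.23, adjusted p = 0.0231) and with a pseudocount of 1 (-0.85, adjusted p = 0.0396). The difference of Tgfb3 was under 2 in size without control replicate 1 (-1.84), sham replicate 1 (-1.79) or UUO replicate 2 (-1.88), and its adjusted p stayed under 0.05 in each. The models differ in agent, duration and table, which cannot be told apart here.

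**Figure D3:**
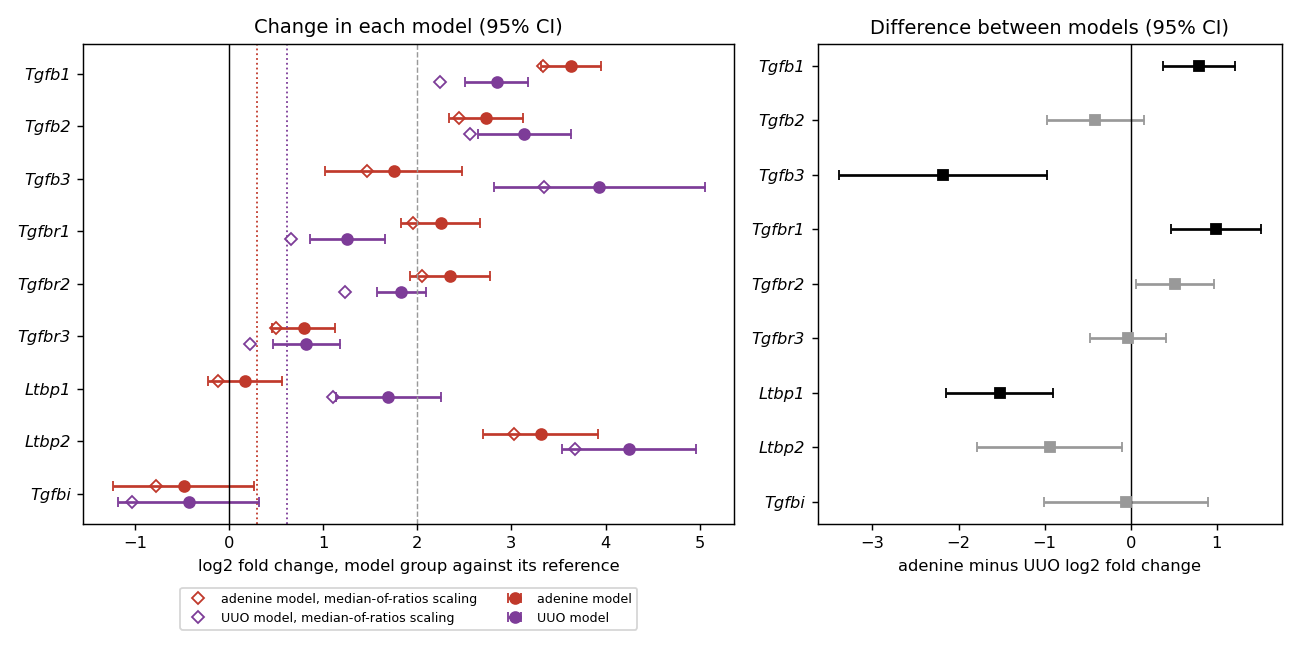
Left, log2 fold change (horizontal axis) of each gene in the adenine and UUO models, with 95% confidence intervals of the limma fit. Open diamonds are values after median-of-ratios scaling, dotted lines the medians of all tested genes (0.30 and 0.62) and the dashed line the DEG threshold of 2. Right, the adenine minus UUO difference with its 95% confidence interval, black where the adjusted p was under 0.05 (Tgfb1, Tgfb3, Tgfbr1 and Ltbp1) and grey otherwise.

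The other genes of the pathway were counted from lists of activators, transducers, inhibitors and targets. Of 57 such genes, 56 were tested in the adenine model, with 19 upregulated and 0 downregulated DEGs (10.7% of all tested genes were upregulated DEGs) and with 41 higher and 5 lower by adjusted p alone (39.6% of all tested genes were higher). In the UUO model all 57 were tested, with 26 upregulated and 0 downregulated DEGs (13.2% of all) and with 46 higher and 4 lower by adjusted p alone (56.1% of all higher). The share of all tested genes that were lower by adjusted p alone was not counted. Counts of lower genes, here and below, therefore cannot be set against such a share. After median-of-ratios scaling 19 were upregulated DEGs and 37 higher with adenine, and 21 and 41 with UUO, and 1 gene, Nox4, became a downregulated DEG in each model. With this scaling 1287 of 14985 tested genes (adenine) and 1210 of 14977 (UUO) were upregulated DEGs. The share of all genes higher by adjusted p alone was not counted under this scaling, which also holds for the lists below. Their median log2 fold change was 1.29 with adenine and 1.81 with UUO, and 1.00 and 1.21 after median-of-ratios scaling. Among the receptors of the family, Eng (endoglin, a coreceptor of endothelial cells) had a log2 fold change of 0.24 (adjusted p = 0.165 by limma) with adenine and 1.72 (adjusted p = 2.22e-05 by limma) with UUO. Acvrl1, the endothelial type I receptor, rose by 0.69 (adjusted p = 0.00695 by limma) and 1.68 (adjusted p = 9.78e-05 by limma) on the log2 scale, the former losing its call after median-of-ratios scaling (0.39, adjusted p = 0.0572). For Eng and Acvrl1 the difference between the models passed (adjusted p = 0.000103 and 0.00438 from the limma fits).

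Genes that store or activate latent TGF-beta mostly rose. Apart from Ltbp1 and Ltbp2, 8 of 19 were upregulated DEGs in each model, where 10.7% (adenine) and 13.2% (UUO) of all tested genes were. By adjusted p alone 16 were higher and 1 lower with adenine and 15 higher and 2 lower with UUO, against 39.6% and 56.1% higher among all tested genes. After median-of-ratios scaling the DEGs were 8 with adenine and 6 with UUO, Nrros (1.89 with UUO) being among those lost. Of all tested genes, 1287 of 14985 (adenine) and 1210 of 14977 (UUO) were then upregulated DEGs. Mmp2 and Mmp14, metalloproteinases, had log2 fold changes of 4.05 and 3.50 with adenine and 4.44 and 3.07 with UUO, and Fbn1, the fibrillin to which binding proteins attach, 3.11 and 3.89. Nrros and Lrrc32, which anchor latent TGF-beta at the surface of myeloid and of regulatory T or endothelial cells, rose by 2.91 and 2.59 with adenine and by 2.48 and 2.76 with UUO. Ltbp4 rose by 1.26 with adenine and 3.04 with UUO, and its difference passed (adjusted p = 9.58e-05 from the limma fits), whereas Ltbp3 rose by 1.93 and 1.90. Of the integrin genes on this list, Itgb3 rose by 3.31 and 2.86, from a mean FPKM of 0.158 in control and 0.254 in sham kidneys. Itgb6 rose by 0.99 and 1.03, Itgb1 by 1.27 and 1.65, Itgav by 1.32 and 1.13 and Itgb5 by 0.87 and 0.70. With UUO the calls of Itgav and Itgb5 were lost after median-of-ratios scaling. Itgb8 fell by 1.66 and 1.44 on the log2 scale (adjusted p = 0.0274 and 0.0227 by limma). These calls of Itgb8 were lost without control replicate 1 or 3 (adjusted p = 0.0852 and 0.0611), and without sham replicate 1 or 3 or UUO replicate 1 (adjusted p = 0.0632, 0.0722 and 0.0549). The call of Itgb8 with UUO was also lost with no filter (adjusted p = 0.112). Mmp9, a gelatinase, went from 5.33 ± 3.78 to 126 ± 74.2 FPKM with adenine and from 5.72 ± 3.31 to 2.07 ± 0.371 FPKM with UUO (SD, n = 3, adjusted p = 0.00335 and 0.0306 by limma). The lower value of Mmp9 with UUO was not past the test with FPKM rescaled to the same sum (adjusted p = 0.0511), with no filter (adjusted p = 0.136), or without sham replicate 2 or 3 or UUO replicate 1 or 3 (adjusted p = 0.0596 to 0.0852).

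**Figure D4:**
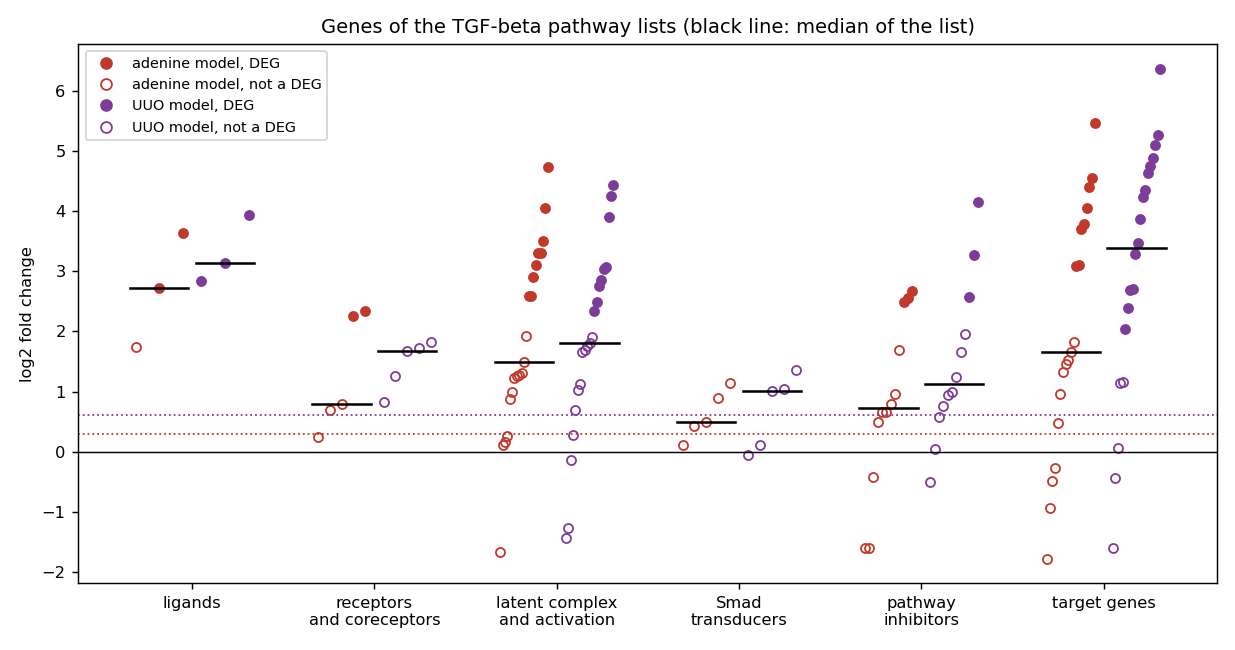
Log2 fold change (vertical axis) of every tested gene in the 6 lists of TGF-beta pathway genes, members included, in the adenine and UUO models. Filled points are DEGs, open points are not, black lines are list medians and dotted lines the medians of all tested genes (0.30 and 0.62). All filled points lie above 0, and the Smad transducers hold no DEG in either model.

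The transducers and inhibitors had median log2 fold changes of 0.50 and 0.73 with adenine and of 1.01 and 1.12 with UUO. Of 5 Smad transducer genes 0 were DEGs, and 3 were higher by adjusted p alone in each model, with UUO close to the 56.1% of all tested genes and with adenine against 39.6%. After median-of-ratios scaling 2 were higher with adenine, and with UUO 3 were higher and 2 lower (Zfyve9, -0.65, and Tgfbrap1, -0.48, adjusted p = 0.00293 and 0.00575 by limma). Smad3 rose by 0.90 with adenine and 1.35 with UUO, Smad4 by 1.14 and 1.05, and Smad2 by 1.01 with UUO, while Smad2 was at 0.50 (adjusted p = 0.0711 by limma) with adenine. Of 12 inhibitor genes 3 were upregulated DEGs in each model (10.7% and 13.2% of all tested genes were), namely Tgif1, a Smad corepressor, at 2.68 and 3.26, and Dcn and Bgn, proteoglycans that bind TGF-beta and are also matrix components, at 2.56 and 2.49 with adenine and 4.15 and 2.57 with UUO. After median-of-ratios scaling Bgn with UUO was at 1.97, under the DEG threshold. Among the inhibitors 7 were higher and 2 lower by adjusted p alone with adenine, and 9 higher and 1 lower with UUO, against 39.6% and 56.1% higher among all tested genes. Smad7, an inhibitor that TGF-beta itself induces, was at -0.43 (adjusted p = 0.0823 by limma) with adenine and was higher by 0.94 (adjusted p = 0.000683 by limma) with UUO. After median-of-ratios scaling these calls were exchanged, at -0.71 (adjusted p = 0.0130) with adenine and 0.35 (adjusted p = 0.0592) with UUO. The pseudoreceptor gene Bambi fell by 1.60 with adenine and by 0.51 with UUO on the log2 scale (adjusted p = 0.000599 and 0.00706 by limma). With UUO the value of Bambi was -1.11 after median-of-ratios scaling and -0.29 (adjusted p = 0.0655, not past the test) with FPKM rescaled to the same sum.

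Of the target genes other than Tgfbi, 8 of 18 were upregulated DEGs with adenine and 15 of 19 with UUO, against 10.7% and 13.2% of all tested genes. Of these targets 14 were higher and 2 lower by adjusted p alone with adenine and 17 higher and 1 lower with UUO, against 39.6% and 56.1% higher among all. After median-of-ratios scaling 8 and 13 were upregulated DEGs, Ccn2 with UUO (1.79) being under the threshold. Among all tested genes 1287 of 14985 (adenine) and 1210 of 14977 (UUO) were then upregulated DEGs. The list median was 1.74 with adenine and 3.47 with UUO on the log2 scale. Fn1 (fibronectin) rose by 5.46 with adenine and 3.47 with UUO, and Col3a1, a fibrillar collagen gene, by 4.05 and 5.10. Ccn2, a matricellular growth factor, had an FPKM of 50.5 ± 15.7 (SD, n = 3) in control and 42.4 ± 15.0 in adenine kidneys, a log2 fold change of -0.28 (adjusted p = 0.493 by limma). Ccn2 rose from 47.2 ± 13.8 in sham to 241 ± 1.12 FPKM in UUO kidneys, a log2 fold change of 2.40 (adjusted p = 0.00011 by limma), and the difference between the models passed (-2.67, adjusted p = 0.000690 from the limma fits). Acta2, smooth muscle actin, rose by 0.96 and 3.29 (adjusted p of the difference 0.0110 from the limma fits). The adenine call of Acta2 was lost after median-of-ratios scaling (0.66, adjusted p = 0.0685) and without control replicate 2 or 3 or adenine replicate 1 or 2 (adjusted p = 0.0502 to 0.0645).

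Markers of other cell types also changed, some upward and some downward, and their part in the results was not tested. Of all tested genes, 10.7% (adenine) and 13.2% (UUO) were upregulated DEGs. By adjusted p alone 39.6% and 56.1% were higher. Downregulated DEGs were 756 of 15029 tested genes with adenine and 633 of 15043 with UUO. All 7 macrophage markers were upregulated DEGs in both models, and their summed FPKM went from between 33.0 and 37.6 in control to between 850 and 1169 in adenine kidneys and from between 38.2 and 48.7 in sham to between 405 and 618 in UUO kidneys. Itgam in all and Mrc1 in most control and sham kidneys were under 0.5 FPKM. Both met the filter only through the adenine and UUO kidneys, so they could be tested only because they were higher there. Of 7 fibroblast and myofibroblast markers 3 were upregulated DEGs with adenine, with sums of 64.2 to 88.0 and 248 to 258, and 6 with UUO, with sums of 58.9 to 99.1 and 717 to 1623. Acta2, Tagln and Postn in this list were also counted among the target genes above. Of 6 endothelial markers 1 was higher and 4 lower by adjusted p alone with adenine (sums of 119 to 154 and 50.1 to 69.3). With UUO 4 were higher (sums of 122 to 137 and 214 to 253), near the share of all tested genes (56.1%). After median-of-ratios scaling 2 endothelial markers (Cdh5 and Egfl7) were higher and 1 (Emcn) lower with UUO, and 0 were higher and 4 lower with adenine. The share of all tested genes that were lower by adjusted p alone was not counted, nor was any share by adjusted p alone after this scaling. Of 6 proximal tubule markers 1 was an upregulated and 3 were downregulated DEGs with adenine (sums of 722 to 1511 and 42.8 to 232), and 3 were downregulated with UUO (sums of 963 to 1353 and 88.8 to 233). No marker of these lists was below 0.1 FPKM in all 3 kidneys of a group except 1 fibroblast marker, Postn, in the sham group. In the UUO model Postn thus met the filter only through the UUO kidneys, both in this list and among the target genes. Kidney identity markers such as Umod and Lrp2 were present in the reference kidneys, where the 6 markers summed to between 1404 and 2963 FPKM. They summed to between 165 and 325 FPKM in adenine kidneys and between 168 and 262 in UUO kidneys. Of these 6 markers, 2 were downregulated DEGs with adenine and 4 with UUO. Lrp2 was counted both in this list and among the proximal tubule markers.

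The 5 genes whose profile over the 12 kidneys was nearest to that of Tgfb1 were Tnfaip8l2, Vsir, Spi1, Tyrobp and Ly86. Nearness was the root mean square distance between log2(FPKM + 0.1) values, each less the mean of its own reference group, among 13485 symbols, and it was 0.123, 0.128, 0.177, 0.179 and 0.187 for these genes. The points share libraries and scaling, so these distances are a description.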

How the data were processed

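Kidney RNA of 12 rats was analysed in 4 groups of 3, assigned by their labels. The libraries were made from poly(A) RNA with a strand-marking protocol. The authors deposited FPKM values per gene in 2 tables, one per model. Per the labels, the submitters' processing notes name cutadapt 1.9, HISAT2 2.0.4 and StringTie 1.3.4d. The genome build and annotation are not given in the sources used here, so genes were matched by symbol. The doses, durations and age come from the study's methods. Depth is unknown, so no counting error could be given, and precision is the spread between 3 rats.

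FPKM was analysed as log2(FPKM + 0.1) with limma 3.58.1 (lmFit, eBayes with trend) in R 4.3.3, separately for each table. Genes that reached an FPKM of 0.5 in 3 or more of the 6 samples were tested (15029 with adenine, 15043 with UUO), with Benjamini-Hochberg adjustment. The fold changes of low genes are understated by the added 0.1. The difference between models was divided by the root of the summed squared SE and referred to a t distribution whose degrees of freedom are the sum of both fits, which treats both tables as independent. Tables and figures were made in Python 3.11.15 (scipy 1.17.1, pandas 2.3.3, numpy 2.4.6). The fits were tested on simulated data. Replicate pairs had identical values in at most 0.545% of tested genes, so none was a duplicate.

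Named genes were the 9 members, up to 4 genes of each pathway list (the DEGs of largest change and genes that define the list) and the 5 genes nearest to Tgfb1. List genes named beyond that number were chosen after their values were seen. A gene that the lists take in is not reported here by name. The members and lists were chosen with earlier results of these data known. Pecam1 and, in the adenine table, Col1a2 were not used here, since no entry carried that symbol. Alternatives were median-of-ratios scaling (each sample divided by the median of its ratios to the gene-wise geometric means), FPKM rescaled to the same sum, a pseudocount of 1 or 0.01, a minimum FPKM of 1 or none, eBayes without trend, a replicate block and leaving out each sample in turn.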

Additional observations from a re-analysis of the deposited data

Results flagged for a closer look

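Of the 9 genes, 4 had a log2 fold change that differed between the adenine and UUO models by a test of the difference (adjusted p over 13486 symbols, from the limma fits), where 27% of all symbols did. The adenine minus UUO difference was 0.79 for Tgfb1 (adjusted p = 0.0101), 0.99 for Tgfbr1 (adjusted p = 0.00975), -2.18 for Tgfb3 (adjusted p = 0.0127) and -1.52 for Ltbp1 (adjusted p = 0.00250). Tgfb1 and Tgfbr1 rose in both models and more with adenine, and Tgfb3 rose in both and more with UUO. Ltbp1 rose with UUO and did not pass the test with adenine.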

How the results depend on the processing

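The calls for the 9 genes as DEGs stayed at 4 to 6 with adenine and 4 or 5 with UUO over all alternatives. Tgfbr1 (adenine) was not a DEG after median-of-ratios scaling, Tgfb3 (adenine) became one with FPKM rescaled to the same sum and without control replicate 1, and Tgfbr2 (UUO) became one with FPKM rescaled to the same sum. By adjusted p alone the counts stayed at 7 or 8 with adenine and 8 with UUO, where after median-of-ratios scaling Tgfbi (lower) took the place of Tgfbr3. A pseudocount of 1 lowered the DEGs of all genes to 1320 (adenine), 1465 (UUO) and 207 (difference), as a larger added value draws low genes towards 0, and no filter gave 598 for the difference. After median-of-ratios scaling the sign turned for Ltbp1 (-0.12) and Eng (-0.053) with adenine, for Smad6 (-0.54) with UUO, and for the difference of Tgfbr3 (0.28) and Tgfbi (0.25). With the same sum the difference of Tgfbr3 was 0.016. Among the other list genes it also turned for Furin (both models), Plau and Zfyve9 (adenine) and Skil, Tgfbrap1 and Id1 (UUO), of which Tgfbrap1 (-0.48, adjusted p = 0.00575) and Id1 (-0.55, adjusted p = 0.00734) were then past the test. With the replicate block Itgb8 with adenine was not past it (adjusted p = 0.0709) and Smad2 was (adjusted p = 0.0482). Leaving out 1 sample gave -0.48 to 0.054 for Ccn2 (adenine), -0.15 to 0.22 for Smad6 (UUO), -0.15 to 0.071 for the difference of Tgfbr3 and -0.41 to 0.20 for that of Tgfbi.

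The replicate numbers of the labels name different rats. Deviations of same-numbered samples correlated at -0.077, -0.12 and -0.049 in the adenine table and 0.050, 0.11 and 0.059 in the UUO table. Differently numbered samples correlated at -0.044 to 0.11 and at -0.078 to 0.016. These values are small, and deviations within a group depend on each other, so they cannot decide whether the numbers paired the samples. With the replicate block there were 2352 DEGs with adenine, 2609 with UUO and 390 for the difference, and 5 and 4 of the 9 genes were DEGs.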

Other observations

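Nearest profiles to the other ligand and binding protein genes were looked at after their values were seen. By the distance used for Tgfb1, the nearest gene to Tgfb3 was Tagln, a smooth muscle and myofibroblast gene (0.349), with log2 fold changes of 1.66 with adenine and 3.86 with UUO. The nearest to Ltbp2 was Tnc, the matrix gene of tenascin (0.254), at 3.10 and 4.23. The nearest to Tgfb2 was Actn1 (0.222), and the nearest to Ltbp1 was LOC100911932 (0.157). Tgif1, an inhibitor of Smad transcription, was at rank 3 for Tgfb2 (0.227), and Eng was at rank 4 for Ltbp1 (0.184). These 2 were picked from the 5 nearest genes because they are on the pathway lists. Distances for Tgfb3 and Ltbp2 were larger than for Tgfb1, whose nearest gene was at 0.123.

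Nox4, an oxidase gene on the list of targets, fell in both models, by 1.78 with adenine and by 1.59 with UUO on the log2 scale (limma adjusted p = 0.0166 and 0.00140), where most of the list rose. After median-of-ratios scaling it was at -2.07 and -2.19, a downregulated DEG in both models. Smad6, an inhibitor of the related BMP pathway, fell by 1.60 with adenine (limma adjusted p = 0.0121) and was at 0.04 with UUO (limma adjusted p = 0.9).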
